A study of Homo sapiens with 2 samples.

Results

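The genes described here are 10 enzymes that make serine, move its one-carbon unit through folate, make asparagine or break down glutathione: PHGDH, PSAT1, PSPH, SHMT1, SHMT2, MTHFD1, MTHFD2, MTHFD1L, ASNS and CHAC1. They were chosen by name, and all 10 were listed in the gene tables of both libraries, out of 23352 genes in all. The series compared A673 cells, an established Ewing sarcoma line driven by the fusion protein EWS/FLI1, after lentiviral delivery of a short hairpin RNA. The first library came from cells carrying sh813, a hairpin against the transcription factor RUNX3, and the second from cells carrying shNT, a non-target hairpin. Cells of both libraries were transduced with 6 µg/mL polybrene, selected in 0.4 µg/mL puromycin for 6 days and sequenced as poly(A) RNA. The titles call each library a pool, each group had 1 library and 1 hairpin was used against RUNX3, so differences cannot be checked against replicates and no test was made. For both libraries the title names one hairpin and the characteristic the other. Titles are used here, 813 and NT, and every direction would turn round if the characteristics were used.

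Serine is made from a glycolytic intermediate by PHGDH, PSAT1 and PSPH, acting in that order. The SHMT enzymes then split serine into glycine and a one-carbon unit held on tetrahydrofolate, SHMT1 in the cytosol and SHMT2 in mitochondria. The MTHFD enzymes between them interconvert the folate forms of that unit and formate. The unit is used in the synthesis of purines, thymidylate and methionine. Several of these genes, with ASNS and CHAC1, are known targets of ATF4, the transcription factor of the amino acid and integrated stress responses. High PHGDH has been described in Ewing sarcoma.

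The 813-titled library held 23342660 counted read pairs and the NT-titled library 24326135. RUNX3 had 387 pairs in the 813-titled library and 1391 in the NT-titled library, a log2 fold of -1.92 (-2.09 to -1.76), which goes with the titles and against the characteristics. Every log2 fold is the 813-titled library over the NT-titled library, with counts scaled by trimmed mean of M values (TMM) and an exact 95% binomial interval that covers counting error only. All 10 Ewing sarcoma markers of a short list were measured at 1 CPM (counts scaled to library size) or more. Their summed levels were 6486 CPM in the 813-titled library and 6074 CPM in the NT-titled library. Most of both sums came from CD99 (98474 and 88396 pairs) and CCND1 (44875 and 27705 pairs). Of the 10 folds, 5 were above 0 and 5 below, with a median of -0.28. PAX7, NKX2-2 and NR0B1, 3 of the 10, were called lower in the 813-titled library. The NR0B1 call ended with plain total counts (-0.97) and with a trend on GC content and length removed (-0.75). Plain total counts also made BCL11B a higher call (1.11, against 0.98 with TMM). Markers of HEK293, the kind of cell used to make virus, summed to 25.6 and 24.4 CPM, with PAX2 at 0 and 1 pairs and 1 of 3 measured markers, GATA3, lower in the 813-titled library (33 and 93 pairs). The other measured markers were SOX2, with 517 and 349 pairs (log2 fold 0.49, 0.29 to 0.69), and NEFL, with 73 and 122 pairs (-0.81, -1.26 to -0.39). Of 5 measured fibroblast and leukocyte markers, summing to 182 and 222 CPM, none was called. Most of both sums came from the fibroblast marker COL1A1 (3998 and 4685 pairs). The other fibroblast markers were DCN with 124 and 146 pairs, LUM with 33 and 23, and PDGFRA with 3 and 4. Among the leukocyte markers PTPRC had 0 and 1 pairs, CD68 had 274 and 272, and CD14 had 30 and 14. By the calling rule given below, 8.13% of the genes at 1 CPM or more in either library were higher and 3.48% lower. The part of these markers in the member values was not tested.

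None of the 10 genes differed 2-fold between the libraries. To be called, a gene had to differ 2-fold or more and have its whole interval beyond 1.5-fold. By this rule 0 of 10 members were called higher, against a background of 8.13% of the 12254 genes that reached 1 CPM in either library, and 0 of 10 were called lower, against 3.48%. At a looser rule of 1.5-fold with the interval excluding equality, MTHFD2 was higher and MTHFD1L lower, against backgrounds of 19.8% and 11.2%. With plain total counts as the scaling the members' counts were again 0 and 0, beside 10.8% and 2.46% of genes, and with DESeq2 size factors 0 and 0, beside 7.89% and 3.58%. The counting interval lay wholly above 0 for 3 members (PSAT1, MTHFD2 and CHAC1), wholly below 0 for 5 (PHGDH, SHMT1, SHMT2, MTHFD1 and MTHFD1L) and included 0 for PSPH and ASNS. Among all tested genes 34.4% lay wholly above and 34.7% wholly below, so intervals on either side of 0 were common at this depth. The median log2 fold was -0.19 over the members and 0.01 over all tested genes.

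**Figure D1:**
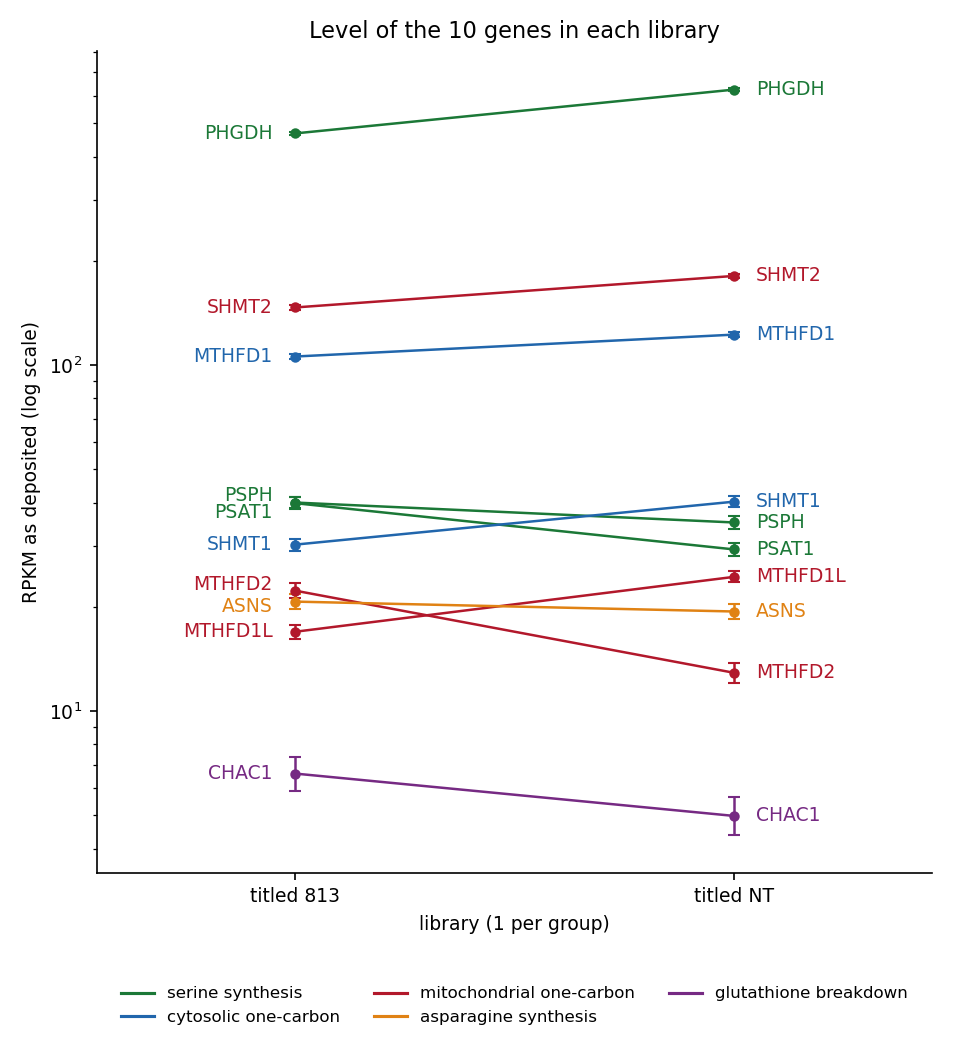
RPKM (reads scaled to gene length and library size, as deposited; log scale) of each of the 10 genes in the 813-titled library (left) and the NT-titled library (right), with exact 95% Poisson counting intervals as bars and colours for roles. Lines join the 2 values of a gene; MTHFD2 lies above MTHFD1L and ASNS on the left and below both on the right.

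Short promoter sequences are shown first, because some match the core letters of the element by which ATF4 is known to act. They belong to genes whose values are given below. Promoter windows of RefSeq (GRCh38.p14, 250 bases before to 50 after a start) were at hand for 8 of the 10 genes and 12 starts, and were searched on both strands for TGATGNAA, the core of the amino acid response element. It was found in 3 of these 8 genes, ASNS, CHAC1 and MTHFD1L, and in 4.46% of the 27305 genes with a window. The sites are given on the strand that carries the motif, in capitals, 30 bases each.
ASNS: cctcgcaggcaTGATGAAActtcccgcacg
CHAC1: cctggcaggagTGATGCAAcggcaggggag
MTHFD1L: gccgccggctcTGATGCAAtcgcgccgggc
The ASNS site (chr7:97872458-97872487, minus strand) began 68 bases upstream of the upstream start of the gene. The CHAC1 site (chr15:40953251-40953280, minus strand, opposite to the gene) lay at 209 bases upstream. The MTHFD1L site (chr6:150866346-150866375, plus strand) lay 129 bases upstream of one annotated start and 25 bases inside the transcript of another. The E-box CACGTG, a palindrome bound by MYC with MAX and by other factors, was found in 2 of the 8 genes and in 8.77% of genes with a window.
MTHFD1: ccagtccctaagCACGTGggttgggttgtc
MTHFD1L: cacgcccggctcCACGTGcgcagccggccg
The MTHFD1 E-box (chr14:64388326-64388355, plus strand) began 15 bases upstream of the start, and that of MTHFD1L (chr6:150866320-150866349, plus strand) lay upstream of the TGATGNAA match of the same gene. The RUNX motif TGTGGT was in 0 of the 8 genes and in 15.6% of genes with a window. The repeat GGAAGGAA, a form of the sequence that EWS/FLI1 binds, was in 1 of the 8 genes, ASNS, at its downstream start, and in 4.50% of genes with a window. A match is a description of letters, and no binding was measured.

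The serine synthesis enzymes did not move as a block: the first had a lower value and the second a higher value in the 813-titled library. PHGDH (chr1:120254419-120286849 in hg19), the dehydrogenase that commits 3-phosphoglycerate to serine, had 28592 pairs (466 RPKM) in the 813-titled library and 39738 pairs (625 RPKM) in the NT-titled library. It was by far the most abundant member, at rank 96 and rank 71 of all genes by RPKM, and held 52.1% and 57.1% of the members' summed RPKM. This gave PHGDH a log2 fold of -0.55 (-0.57 to -0.53), or 1.46-fold less in the 813-titled library, and 13.0% of tested genes had a lower fold. PSAT1 (chr9:80912059-80945009), the aminotransferase of the next step, had 2654 pairs (39.9 RPKM) in the 813-titled library and 2024 pairs (29.3 RPKM) in the NT-titled library. The PSAT1 log2 fold was 0.32 (0.23 to 0.40), or 1.24-fold more in the 813-titled library, and 32.5% of tested genes had a higher fold. PSPH (chr7:56078744-56119268), the phosphatase that releases serine, had 2579 pairs (40.02 RPKM) and 2344 pairs (35.0 RPKM), with a log2 fold of 0.06 (-0.02 to 0.14). The PSAT1 and PSPH levels per length were within counting error of each other in the 813-titled library, while PSPH lay above PSAT1 in the NT-titled library. The ratio of PSAT1 to SHMT1, the enzyme that uses serine in the cytosol, was 1.32 in the 813-titled library and 0.728 in the NT-titled library.

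Both cytosolic one-carbon enzymes had lower values in the 813-titled library. SHMT1 (chr17:18231187-18266856), which converts serine to glycine in the cytosol, had 2317 pairs (30.2 RPKM) in the 813-titled library and 3202 pairs (40.3 RPKM) in the NT-titled library. The SHMT1 log2 fold was -0.54 (-0.62 to -0.46). The 3' end of SHMT1 overlaps the gene SMCR8 in the deposited table, and without the 3' exon record the log2 fold of the other SHMT1 exon records was -0.54 (-0.63 to -0.46). MTHFD1 (chr14:64854759-64926725), a trifunctional enzyme that carries the one-carbon unit between formate and methylene-tetrahydrofolate, had 11089 pairs (106 RPKM) and 13319 pairs (122 RPKM). For MTHFD1 the log2 fold was -0.34 (-0.38 to -0.30), and 23.9% of tested genes had a lower fold.

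The mitochondrial enzymes diverged, with MTHFD2 on one side and SHMT2 and MTHFD1L on the other. SHMT2 (chr12:57623356-57628718), the mitochondrial hydroxymethyltransferase, had 12731 pairs (147 RPKM) in the 813-titled library and 16302 pairs (181 RPKM) in the NT-titled library. Its log2 fold was -0.43 (-0.47 to -0.40), and its level per length was over that of the cytosolic SHMT1 in both libraries. SHMT2 overlaps the gene NDUFA4L2 in the deposited table, and its 17 exon records all had negative folds. MTHFD2 (chr2:74425690-74442424), the mitochondrial dehydrogenase and cyclohydrolase that is abundant in embryonic and tumour cells, had 1549 pairs (22.3 RPKM) and 930 pairs (12.9 RPKM). This is a log2 fold of 0.66 (0.54 to 0.78), or 1.58-fold more in the 813-titled library, and 18.4% of tested genes had a higher fold. MTHFD1L (chr6:151186815-151423023), the ligase that turns mitochondrial formyl-tetrahydrofolate into formate for export, had 1892 pairs (16.9 RPKM) and 2831 pairs (24.4 RPKM). MTHFD1L thus had a log2 fold of -0.66 (-0.74 to -0.57), or 1.58-fold less in the 813-titled library, and 9.45% of tested genes had a lower fold. MTHFD2 and MTHFD1L, which act one after the other in mitochondria, therefore had folds of opposite sign, the 2 largest of the 10 genes with TMM scaling. With plain total counts they were 0.80 and -0.52. With a trend on GC content and length removed CHAC1 (0.75) was above both in size, and MTHFD1 (-0.53) was above MTHFD2 (0.51).

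Of the ATF4 targets ASNS and CHAC1, the first was close to equal in the 2 libraries and the second had a slightly higher value in the 813-titled library. ASNS (chr7:97481429-97501854), which makes asparagine from aspartate and glutamine, had 1591 pairs (20.7 RPKM) in the 813-titled library and 1546 pairs (19.4 RPKM) in the NT-titled library. Its log2 fold was -0.03 (-0.14 to 0.07), and 95.5% of tested genes had a fold of larger size. CHAC1 (chr15:41245636-41248717), a cyclotransferase that breaks down glutathione, was the least abundant member, with 313 pairs (6.59 RPKM) and 245 pairs (4.97 RPKM). Its log2 fold was 0.28 (0.03 to 0.53), with the widest interval of the 10. ASNS, CHAC1 and MTHFD1L, the 3 genes with a match to the core letters of the response element, had folds of -0.03, 0.28 and -0.66. The ASNS interval held 0.

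**Figure D2:**
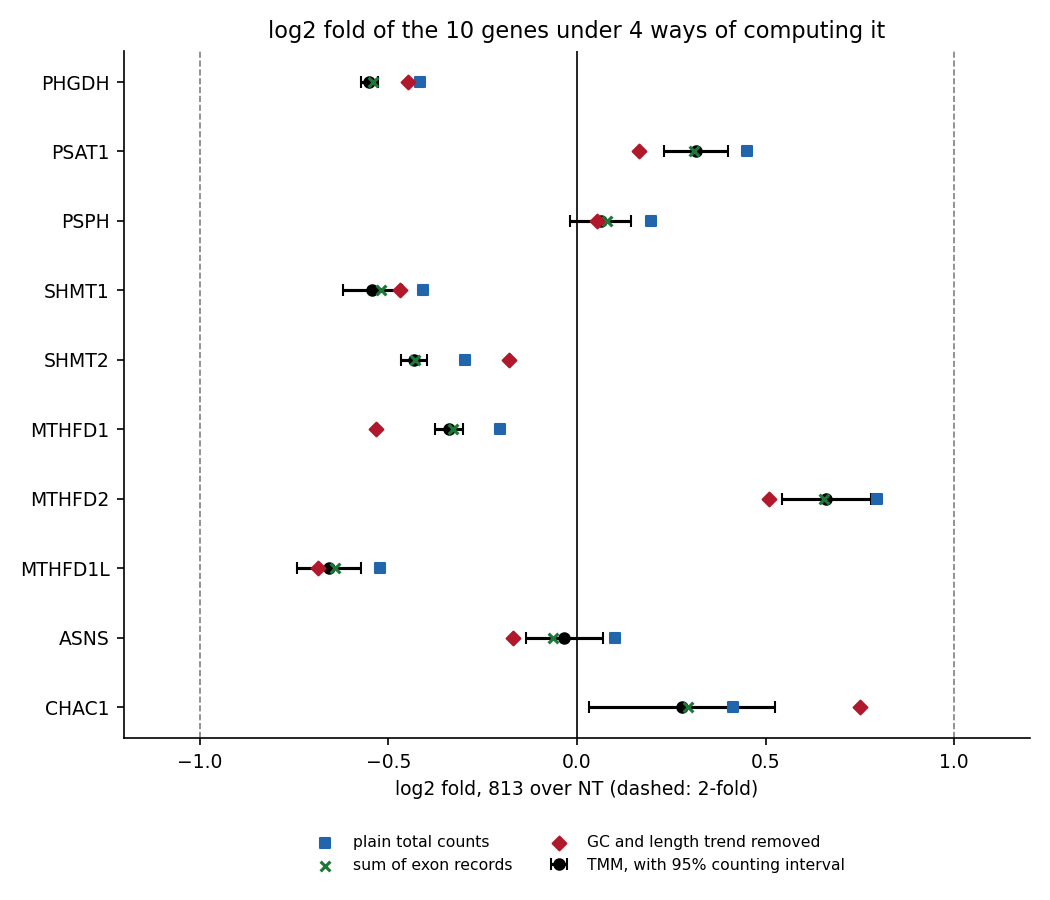
log2 fold of each of the 10 genes (the 813-titled library over the NT-titled library) scaled by TMM with its 95% counting interval (black), and recomputed with plain total counts (blue), from summed exon records (green) and with a trend on GC content and length removed (red). Every value lies inside the dashed 2-fold lines, and ASNS is the only gene whose sign differs between the values.

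Ratios between members were also taken within each library, since these do not depend on how the libraries are scaled. All 45 pairs of the 10 genes were compared, per length, with an approximate 95% interval from the 4 counts. The ratio of MTHFD2 to MTHFD1L was 1.32 in the 813-titled library and 0.528 in the NT-titled library, a 2.49-fold difference (2.26 to 2.75), the largest of the 45 without the trend removed. MTHFD2 was thus the more abundant of these partners in the 813-titled library and the less abundant in the NT-titled library. In 5 pairs the ratio differed 2-fold or more with its interval beyond 1.5-fold, and MTHFD2 was in each of them, set against PHGDH, SHMT1, SHMT2, MTHFD1 and MTHFD1L. Over all pairs of tested genes 23.1% passed the same rule, so such a change was no more common among the members than among genes at large. The order of the levels differed between libraries in 5 pairs: MTHFD2 with MTHFD1L, MTHFD2 with ASNS, MTHFD1L with ASNS, PSAT1 with SHMT1, and PSPH with SHMT1. Among all pairs of tested genes the order differed in 6.89%. The PHGDH level per length was 20.9 times that of MTHFD2 in the 813-titled library, against 48.5 times in the NT-titled library. With the trend on GC content and length removed, 6 of the 45 ratios changed 2-fold or more, beside 22.5% of all pairs. They were MTHFD2 with MTHFD1 and with MTHFD1L, and CHAC1 with PHGDH, SHMT1, MTHFD1 and MTHFD1L, the largest being MTHFD1L over CHAC1 at -1.44 on the log2 scale. The ratios of PHGDH (-0.96), SHMT1 (-0.98) and SHMT2 (-0.69) over MTHFD2 were then under 2-fold.

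The exon tables gave a second count of each gene. All 148 exon records of the 10 genes had 50 reads or more over both libraries. None differed 2-fold from the other records of its gene with intervals apart, against a background of 0.439% of 93027 records. All 12 PHGDH records lay between -0.63 and -0.47, all 28 MTHFD1 records between -0.44 and -0.14 and all 17 SHMT2 records between -0.58 and -0.32. The 12 SHMT1 records ran from -0.73 to -0.38. The spread was wider in MTHFD1L, with 31 records from -0.95 to -0.20, and in CHAC1, with 5 records from 0.16 to 0.84. The 9 MTHFD2 records, from 0.47 to 0.78, and the 9 PSAT1 records, from 0.06 to 0.47, were all above 0. The records of PSPH and ASNS lay on both sides of 0.

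At any size of departure, the intervals of a record and of the rest of its gene were apart in 4 of the 148 member records (2.70%), a share close to that among all records (2.67%). They were 2 records of SHMT2, 1 of MTHFD1 and the last of MTHFD1L (chr6:151422662-151423023), which had 326 reads in the 813-titled library and 356 in the NT-titled library, a log2 fold of -0.20 (-0.52 to 0.11). In CHAC1 the second record, 36 bases long, had 50 and 26 reads, and the largest departure of any member record, 1.49-fold, had an interval that overlapped that of the rest. ASNS has alternative first exons: the upstream one (chr7:97501663-97501854) had 91 reads in the 813-titled library and 104 in the NT-titled library, and the record chr7:97501353-97501477 had 56 and 59. Neither ASNS start stood apart from the other records of the gene.

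**Figure D3:**
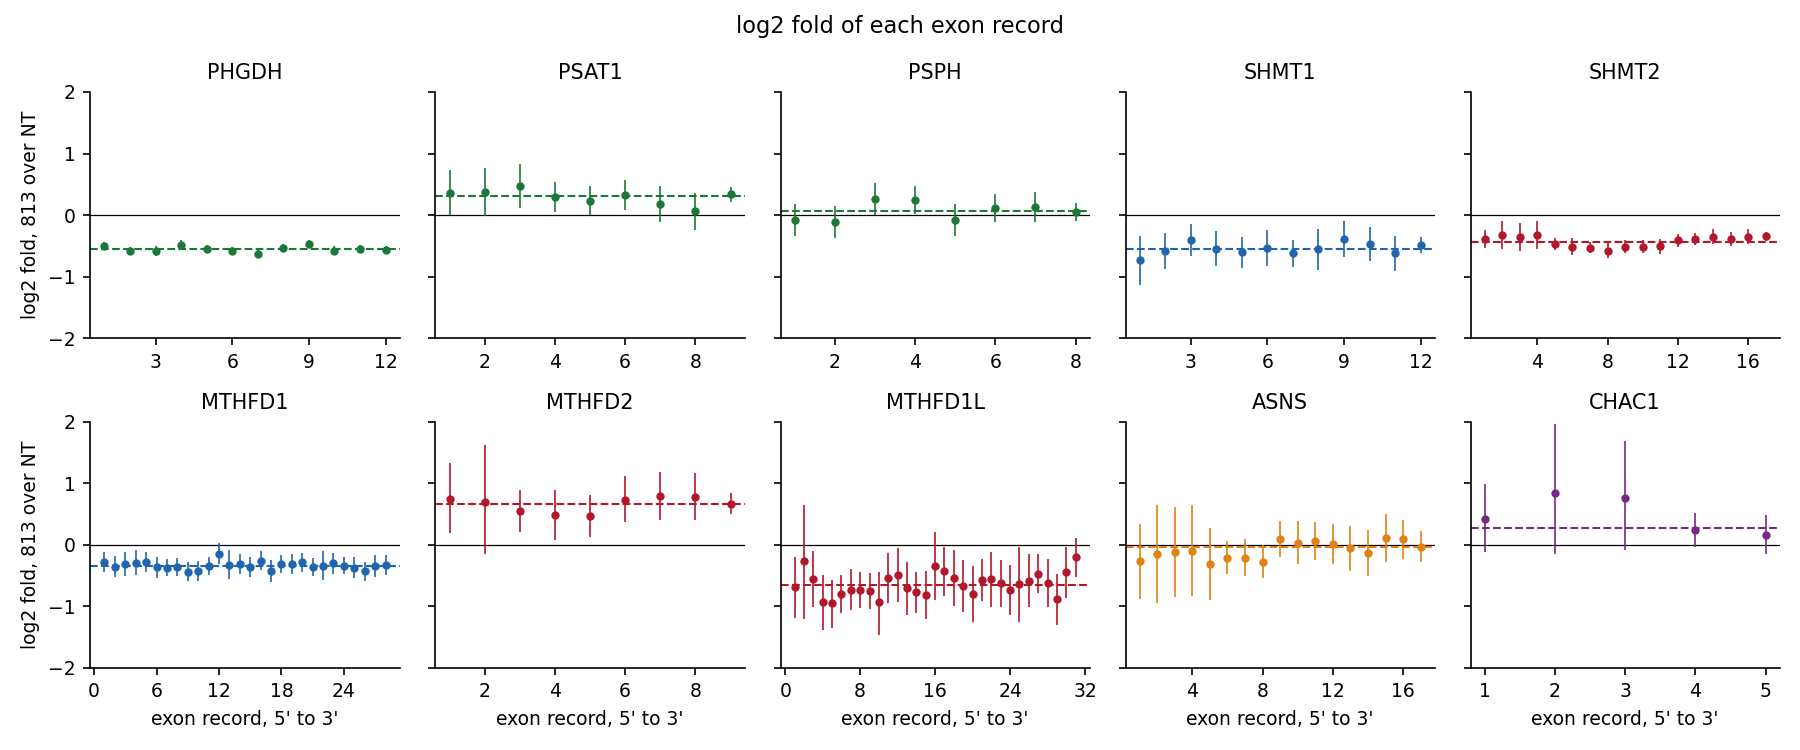
log2 fold of each exon record of the 10 genes (the 813-titled library over the NT-titled library), in order from the 5' to the 3' end, with 95% counting intervals as bars and the value of the whole gene as a dashed line. Records that overlap share reads; MTHFD2 and PSAT1 lie above 0 throughout, PHGDH, SHMT1, SHMT2, MTHFD1 and MTHFD1L below 0 throughout.

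GC content moved with the fold across the whole table and is given beside the member values for that reason. Over 11866 tested genes, 15.6% of the variance in log2 fold went with a smooth surface in GC content and length. The members with positive folds included the 2 of lowest GC content, MTHFD2 (41.4%) and PSAT1 (42.3%), and PHGDH, SHMT1, MTHFD1L and SHMT2 lay between 51.9% and 57.0%. CHAC1 departed from this order, with the highest GC content (62.6%) and a positive fold. MTHFD1 (47.6%, log2 fold -0.34) and ASNS (47.0%, -0.03) departed too, with lower GC content than PSPH (49.8%, 0.06). With the trend removed MTHFD2 had a log2 fold of 0.51 (0.39 to 0.63), MTHFD1L -0.69 (-0.77 to -0.60), PSAT1 0.16 (0.08 to 0.25) and PHGDH -0.45 (-0.47 to -0.43). SHMT2 moved to -0.18 (-0.21 to -0.15), MTHFD1 to -0.53 (-0.57 to -0.50) and CHAC1 to 0.75 (0.51 to 0.999). MTHFD2 and MTHFD1L thus kept their signs, and the change of their ratio was 1.196 on the log2 scale with the trend removed and 1.32 without. Again 0 members were called higher and 0 lower, beside 6.27% and 2.39% of genes with the trend removed. Whether GC content or length has a part in the member values was not tested.

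**Figure D4:**
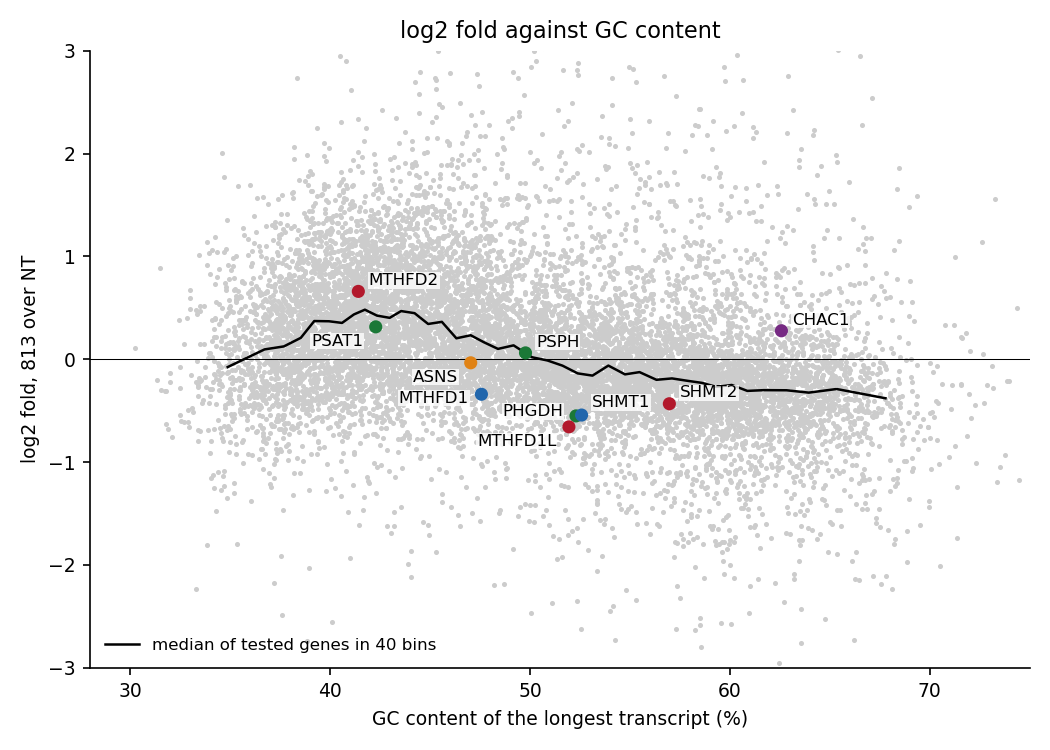
log2 fold (the 813-titled library over the NT-titled library) against the GC content of the longest transcript for tested genes (grey), with the median in 40 bins of equal size (black line) and the 10 genes in colour. The vertical axis is cut at 3 in both directions; the median is lower at high GC content, and CHAC1 lies farthest above the line.

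Genes around the 10 were read from lists chosen by function. Over all tested genes 8.13% were called higher and 3.48% lower, which are the shares to set beside each list. Among 13 measured genes of the folate cycle and folate transport, ALDH1L1 was lower in the 813-titled library. ALDH1L1, which removes the one-carbon unit as carbon dioxide in the cytosol, had 1272 pairs (13.4 RPKM) in the 813-titled library and 2590 pairs (26.2 RPKM) in the NT-titled library, which gives a log2 fold of -1.10 (-1.199 to -1.004); plain total counts (-0.97) or removing the trend (-0.85) ended its call. Of 10 measured genes of the methionine cycle and transsulfuration, MTRR, which reactivates methionine synthase, was higher with 212 and 99 pairs (1.02, 0.67 to 1.38), and its call ended with the trend removed (0.77). None of 12 measured purine synthesis genes and none of 13 glycine cleavage and serine or glycine using genes was called, though removing the trend added SDSL as higher (1.81, with 25 and 9 pairs).

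Amino acid and glutathione genes next to ASNS and CHAC1 had calls in both directions. Of 15 measured genes of asparagine, aspartate and glutamine metabolism, 1 was higher and 2 were lower, beside 8.13% and 3.48% of all tested genes. ASS1, which joins citrulline to aspartate, had 835 pairs in the 813-titled library and 243 in the NT-titled library, a log2 fold of 1.70 (1.497 to 1.92). ASL, the next enzyme of the same route, had 658 and 1957 pairs, which gives a log2 fold of -1.65 (-1.78 to -1.52). PCK2, the mitochondrial phosphoenolpyruvate carboxykinase, had 828 and 1774 pairs (-1.17, -1.30 to -1.06), and its call ended with the trend removed (-0.74). Of 7 measured glutathione genes, the synthesis enzyme GCLC was higher with 177 and 67 pairs (1.32, 0.91 to 1.75). The 5-oxoprolinase OPLAH, which returns glutamate from the product of CHAC1, was lower with 1225 and 3193 pairs (-1.46, -1.55 to -1.36), and its call ended with the trend removed (-0.97). Summed exon records added GGT1 as higher (1.85), a gene under 1 CPM in the gene table.

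Among regulators of these genes, ATF4, DDIT3, TRIB3 and MYC had folds under 2-fold, and 5 others were called. ATF4 had 16252 pairs (264 RPKM) in the 813-titled library and 19130 pairs (300 RPKM) in the NT-titled library, a log2 fold of -0.31 (-0.34 to -0.28). The copy ATF4P3 matches 52.3% of the longest ATF4 transcript at 97.5% identity, which makes the ATF4 count uncertain. ATF4 protein is controlled largely in translation and was not measured. Its partner DDIT3 had 162 and 121 pairs (0.34, -0.003 to 0.70, and 0.22 from summed exon records). The gene MARS matches 27.1% of the longest DDIT3 transcript at 100% identity, which makes the DDIT3 count uncertain. TRIB3, a target of ATF4, had 1483 and 1753 pairs (-0.32, -0.42 to -0.22, and 0.10 with the trend removed). Of 20 genes for integrated stress response kinases and regulators, 3 were higher and 0 lower, beside 8.13% and 3.48% of all tested genes. They were PPP1R15B (1.52), NUPR1 (1.58, 0.86 to 2.41) and ATF6 (1.02, with its call ended at 0.60 by removing the trend). NUPR1 had only 64 and 20 pairs, and was at 0.86 CPM in the NT-titled library. ATF3 (0.99) was called higher with plain total counts (1.13). Of 12 measured further ATF4 targets, GDF15 and ERO1L were higher. GDF15, a secreted stress protein, had 138 and 19 pairs (2.75, 2.09 to 3.56). It reached 1 CPM only in the 813-titled library, with 5.64 CPM there and 0.82 CPM in the NT-titled library. The oxidase ERO1L was at 1.14, and at 0.98 with the trend removed, which ended its call. Of 11 measured amino acid transporters 1, SLC43A1, was lower with 344 and 1098 pairs (-1.75, -1.93 to -1.57), and 0 of 21 cytosolic aminoacyl-tRNA synthetase and tRNA export genes were called in either direction. Plain total counts added the tRNA exporter XPOT as higher (1.004, against 0.87 with TMM), and removing the trend added the transporter SLC1A4 as lower (-1.02, against -0.73). MYC had 6102 and 7037 pairs (-0.28, -0.33 to -0.23), while in its family MXD1 was higher (1.32, and 0.94 with the trend removed, which ended its call) and MYCL1 was lower (-1.43).

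Medians of these lists lay on both sides of that of all tested genes, 0.01. They were -0.26 for the folate genes, -0.17 for purine synthesis, -0.15 for asparagine, aspartate and glutamine metabolism, -0.08 for glutathione, 0.25 for the stress response regulators, 0.22 for further ATF4 targets, -0.18 for the transporters and -0.06 for the synthetases. Plain total counts gave a positive median for the glutathione genes (0.05) and the synthetases (0.08), both still under the median of all tested genes, which was then 0.15. Removing the trend gave a positive median for the transporters (0.16). The methionine and transsulfuration genes had 0.08 (-0.13 with the trend removed) and the glycine cleavage group -0.16. Cell cycle genes, which move with the demand for nucleotides, had a median of -0.16 with 1 of 19 measured genes, CDK1, lower (-1.22, -1.37 to -1.06) and 0 higher; the part of cell number or growth in the member values was not tested.

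**Figure D5:**
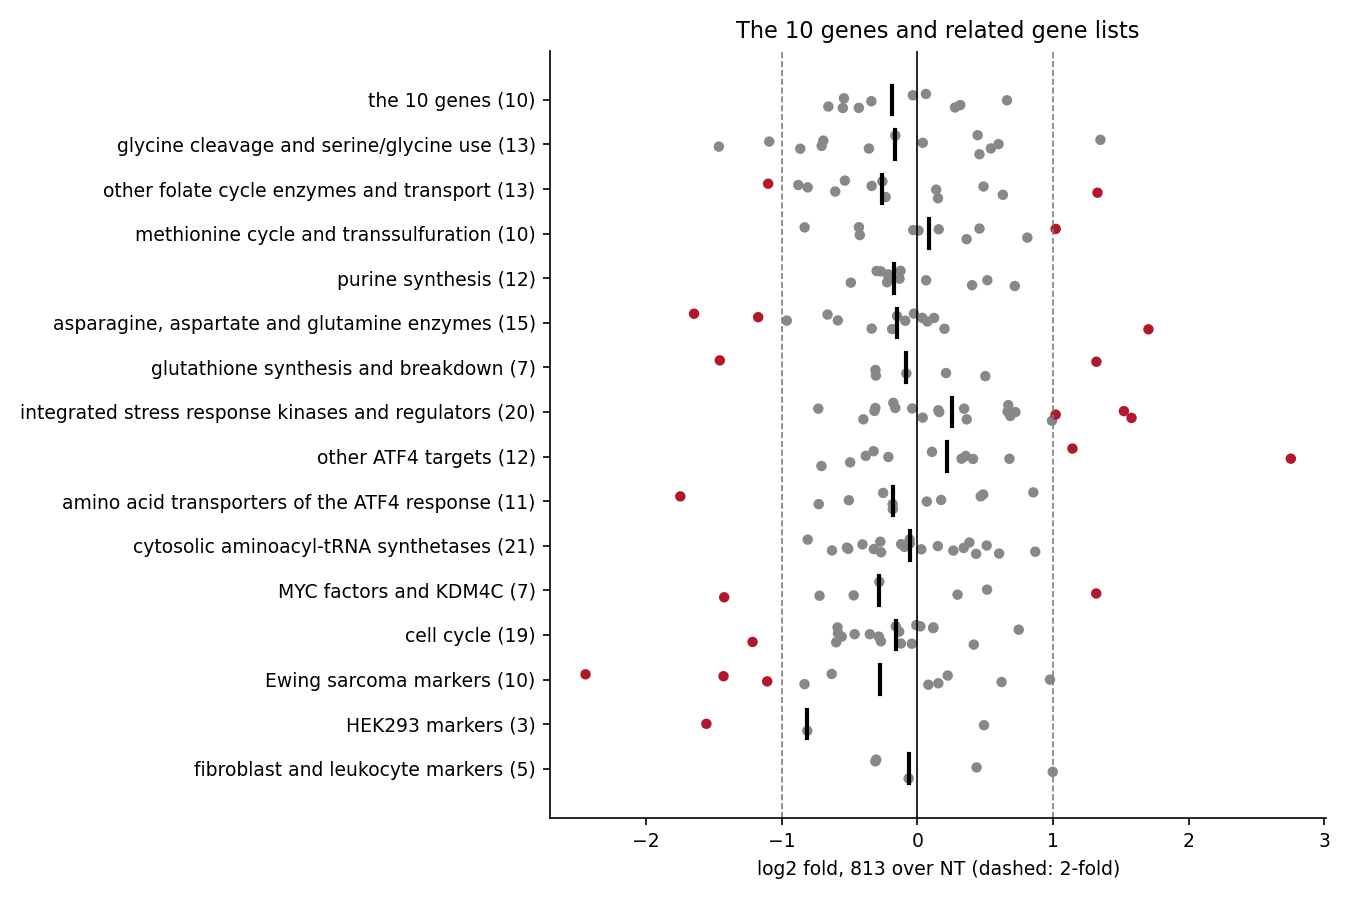
log2 fold (the 813-titled library over the NT-titled library) of each measured gene of the 10 and of the related lists, with the number measured in brackets, called genes in red and the median of each list as a black bar. All of the 10 genes lie inside the dashed 2-fold lines, while called genes in the neighbouring lists lie on both sides.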

How the data were processed

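Poly(A) RNA of 2 A673 libraries, 1 per group, was analysed. The submitters' processing notes name CASAVA 1.9, TopHat2 2.0.6, HTSeq and the build hg19, with no role or order. No source used here gives the annotation or strand setting, so overlapping genes cannot be told apart by strand. Per the file headers the authors deposited raw counts and RPKM per gene and per exon record. All deposited gene counts are even (0 odd values) while 36.4% and 35.5% of exon counts are odd. Gene counts were therefore divided by 2 and called read pairs, and exon reads were divided by 2 for intervals. The deposited RPKM uses totals of 60848394 and 63156235 reads.

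After dropping 46 repeated rows, counts were scaled by TMM (edgeR 4.0.16, R 4.3.3) with factors of 1.05 and 0.954, and log2 folds used a prior of 0.5 pairs. Exact 95% conditional binomial intervals (scipy 1.17.1) cover counting error only; PCR copies are not independent molecules. The rule was tried on data simulated with counting error only, which cannot show how it does under spread between cultures. Ratios over all 45 pairs of members were added after the member values were seen. No p-value was computed. GC content came from the longest GENCODE release 29 transcript, found for 96.8% of tested genes; a cubic surface in GC content and log length gave the trend. Transcripts of the members were compared with all others by blastn 2.17.0, and processed copies reached 95.2% identity over 50.9% of PSAT1 (PSAT1P3) and 91.9% over 77.6% of ASNS (ASNSP1). At 100% identity AC079781.5 matched 84.5% of ASNS and SLC4A5 matched 29.7% of MTHFD2. SLC4A5 is in the deposited table, where its coordinates do not overlap MTHFD2. Named genes were the 10 members, RUNX3, ATF4, DDIT3, TRIB3, MYC and up to 4 called genes in each direction per list. A gene that this rule names is not reported here. ATF3, XPOT, SLC1A4, BCL11B, SDSL and GGT1, called only under an alternative, were named after their values were seen. The markers SOX2, NEFL, CD68, CD14, CD99, CCND1, COL1A1, DCN, LUM and PDGFRA were likewise named after their values were seen. The members and lists were chosen with earlier results of these data known. Alternatives were plain totals, DESeq2 1.42.0 size factors, the deposited RPKM, leaving out the 20 most abundant genes, summed exon records, the trend, other filters and a 1.5-fold rule.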

Additional observations from a re-analysis of the deposited data

How the results depend on the processing

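No paired analysis was possible because each group has 1 library, and none could be left out. The counts of 0 members higher and 0 lower were also 0 and 0 with plain totals, DESeq2 size factors, the deposited RPKM, the 20 most abundant genes left out of the library size, summed exon records, the trend on GC content and length removed, no filter, a filter of 5 CPM and intervals from undivided counts. The rule of 1.5-fold gave 1 higher and 1 lower. The median log2 fold of the members, -0.19, was -0.0519 with plain totals, -0.0584 with the 20 most abundant genes left out and -0.0578 with the deposited RPKM. Plain totals put the log2 fold of every gene 0.135 higher, and the median of all tested genes was then 0.15. ASNS, whose interval held 0, was at 0.10 with plain totals. Of 60 member folds under alternatives, 34 left their own counting interval, which is narrow at these counts. The number of departing member exons was 0 with a minimum of 20 reads too. The depth limits CHAC1 most, and the spread between cultures cannot be told from these data.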
